A study of Homo sapiens with 2 samples.

Results

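Histone genes were represented by 40 genes of the 10750 named genes with a value on at least 1 of 2 arrays, measured by 54 of 24267 probes. A probe was taken as a histone probe when its listed symbol was an older histone name (HIST1H, HIST2H, HIST3H, HIST4H, H1F, H2AF or H3F) or when its current symbol was a histone name. The measured genes were sorted by their current symbols into 27 replication-dependent genes (40 probes), 8 variants (9 probes) and 5 germline histones (5 probes). The germline genes were a chosen list of genes known from the testis or the oocyte. H2AP, also known from testis, was counted as a variant. A further 3 genes, H1-1, H1-4 and H2BC1, had probes without a value on either array, and H2BC26 had none on the second. The genes of the replacement histone H3.3, H3-3A and H3-3B, were not among the probes listed with a single gene symbol and were not analysed here.

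The arrays compared total RNA from cultured mesothelioma lines whose CD26 had been lowered or raised. On the first (n = 1 array), CD26-depleted ACC-MESO1 cells were set against control ACC-MESO1 cells. On the second (n = 1 array), CD26-transfected MSTO-211H cells, which received CD26 in the vector pLNCX2, were set against control MSTO-211H cells. The labels name the depleting agent as siRNA in one place and shRNA in another, and the treatment of the control cells is not stated there. Manipulated cells carried Cy3 and control cells Cy5 on both arrays, so a dye effect on a gene would have the same sign on both and cannot be told apart from a change shared by both manipulations. Each value is a log2 ratio of manipulated over control cells, and with 1 array per comparison there is no test and no replicate SD. These are bulk RNA samples, so a change in the share of cells in S phase and a change in histone mRNA per cell cannot be told apart.

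DPP4, the gene of CD26, was at -3.92 after depletion and at 5.51 after transfection, from 1 probe. The ratios hold no levels, so the mesothelial identity of the cells could not be checked by its markers, whose 7 measured members had median log2 ratios of -0.01 after depletion and -0.12 after transfection. MSLN (-1.31) and KRT18 (-1.16) were the mesothelial markers at least 2-fold lower, both after transfection. The list was mixed, with 3 above 0 and 4 below on each array. UPK3B was the highest after transfection (0.66), and MSLN (0.59) and WT1 (-0.37) were the extremes after depletion. Of the fibroblast markers 4 of 5 had a value after depletion (median -0.08, with MFAP5 at 1.96) and 2 after transfection (median -0.74). Of 6 lymphocyte markers, CD3D was the only one measured after depletion (-0.07), and CD3E (1.88) and CD3D (-0.76) were measured after transfection. The spread of different probes of a gene was the only repeat measurement, and pooled over genes its SD was 0.42 on the first array (566 genes) and 0.45 on the second (471 genes).

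Histones package DNA into nucleosomes, each made of the core histones H2A, H2B, H3 and H4, while the linker histone H1 binds the DNA between nucleosomes. Replication-dependent histone genes lie in clusters, are transcribed mainly in S phase, and give mRNAs without introns that usually end in a stem-loop in place of a poly(A) tail. Most variant histones come from single genes with polyadenylated mRNAs, are made throughout the cell cycle, and replace the replication-dependent forms at particular sites. The variant class used here may hold exceptions. The labels name an amino allyl amplification kit of a type that primes on poly(A) tails, so a ratio for a replication-dependent gene covers whatever transcripts of it were primed, and that part was not measured here.

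Replication-dependent H2A and H2B genes often stand in pairs that are read outward from a shared stretch of DNA. The RefSeq promoter table (GRCh38.p14) held the start regions of 25 of the 27 measured replication-dependent genes, all 8 variants and all 5 germline histones, and H2AC12 and H2BC12L had no entry. The 250 bases before the start are shown for H2AC6, which had the lowest histone ratio on both arrays, for H2BC13 and H2BC14, the lowest H2B genes after transfection, for H2BC17, the H2B gene above 0 there, and for the variant H2AZ1. Capitals mark 4 motifs, each on either strand. These are the CCAAT box (letters CCAAT), the TATA box (letters TATAAA), 7 letters of the octamer known from H2B promoters (TTTGCAT) and the H1 box (letters AAACACA).
H2AC6, chr6:26123922-26124171 (+): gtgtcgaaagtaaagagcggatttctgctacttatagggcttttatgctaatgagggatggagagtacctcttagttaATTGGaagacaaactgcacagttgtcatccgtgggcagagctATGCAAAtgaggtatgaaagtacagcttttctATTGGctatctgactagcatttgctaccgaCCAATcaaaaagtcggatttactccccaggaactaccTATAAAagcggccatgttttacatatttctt
H2BC13, chr6:27807930-27808179 (-): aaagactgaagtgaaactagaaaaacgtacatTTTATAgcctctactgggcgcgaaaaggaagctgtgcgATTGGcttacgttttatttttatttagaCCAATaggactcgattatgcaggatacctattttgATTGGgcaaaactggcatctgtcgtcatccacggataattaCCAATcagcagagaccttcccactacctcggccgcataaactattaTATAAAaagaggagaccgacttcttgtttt
H2BC14, chr6:27814772-27815021 (+): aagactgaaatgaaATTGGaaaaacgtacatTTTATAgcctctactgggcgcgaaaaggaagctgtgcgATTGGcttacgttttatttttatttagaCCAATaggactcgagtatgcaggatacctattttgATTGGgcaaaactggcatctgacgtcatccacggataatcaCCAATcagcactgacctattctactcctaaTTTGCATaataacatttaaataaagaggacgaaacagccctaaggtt
H2BC17, chr6:27893175-27893424 (+): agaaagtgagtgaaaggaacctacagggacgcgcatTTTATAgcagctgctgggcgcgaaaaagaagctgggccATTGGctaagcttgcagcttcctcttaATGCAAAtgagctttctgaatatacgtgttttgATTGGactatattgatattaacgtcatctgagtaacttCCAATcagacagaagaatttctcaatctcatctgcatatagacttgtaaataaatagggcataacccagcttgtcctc
H2AZ1, chr4:99950276-99950525 (-): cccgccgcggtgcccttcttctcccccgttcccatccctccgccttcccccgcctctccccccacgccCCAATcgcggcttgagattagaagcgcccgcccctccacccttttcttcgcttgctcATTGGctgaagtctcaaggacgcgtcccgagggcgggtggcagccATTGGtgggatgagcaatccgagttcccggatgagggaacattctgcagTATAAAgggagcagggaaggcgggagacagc

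The stretch shown for H2AC6 spans the whole gap to its outward-read neighbour H2BC4, whose start lies 246 bases away and which was not measured. H2BC13 and H2BC14 were 86% identical over these bases, and each was closer to the other than to H2BC17 (64.4% and 63.2%). The capitals TTTATA near the far end of the H2BC13, H2BC14 and H2BC17 stretches lie on the strand of the neighbouring H2A gene. The octamer letters were found in 13 of 25 replication-dependent promoters (52%), in 0 of 8 variant promoters and in 3.98% of 27305 promoters of the table. CCAAT was found in 92% of replication-dependent, 62.5% of variant and 33% of all promoters, and the TATA box letters in 64%, 50% and 11.1%. The H1 box was found in 3 of 25 replication-dependent promoters, those of H1-2, H1-3 and H1-5, in 0 of 8 variant promoters and in 4.95% of all. No 2 marked motifs overlap in the sequences shown, and a match is a description of the letters, not of binding.

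After CD26 depletion, replication-dependent histones as a class lay close to the rest of the genes, while most variants lay below 0. The median log2 ratio was 0.08 over 27 replication-dependent genes and -0.31 over 8 variants, a difference of 0.39, against a median of 0.01 over all 10347 genes. Of the replication-dependent genes 14 were above 0 and 13 below, and of the variants 2 were above and 6 below. Of all genes 51.3% were above 0 and 48.7% below. H4C7 was the replication-dependent gene at least 2-fold higher, where 3.31% of all genes were, and H2AC6 the one at least 2-fold lower, where 1.56% of all genes were; no variant passed 2-fold. These counts of 1 in 27 are near those backgrounds. At a log2 ratio of 0.5 or more in size, 3 replication-dependent genes were higher, beside 12.8% of all genes, and 6 lower, beside 9.8%.

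Each median changed sign under 1 alternative of processing, the replication-dependent one with the probe summary and the variant one with the centring. With each probe counted on its own, the replication-dependent median was -0.20; the 12 measured probes of H3C4 and H2AC12 were all below 0. Centring the array on ribosomal protein genes moved all of its genes up by 0.35. This put the variant median at 0.045 and the replication-dependent median at 0.43. The median of all genes was then 0.37, so the variant median still lay below it.

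After CD26 transfection, replication-dependent genes lay more often below 0 than above, while the variant median was close to 0. Over all 9359 genes the median was 0.01, with 49.3% below 0. The replication-dependent median was -0.15 over 26 genes, with 9 above 0 and 17 below. The variant median was -0.00052 over 8 genes, with 4 above and 4 below. The difference was -0.15, opposite in sign to that after depletion. H2AC6 was the replication-dependent gene at least 2-fold lower, beside 1.37% of all genes, and none was at least 2-fold higher, beside 4.09% of all genes. At a log2 ratio of 0.5 or more in size, 5 replication-dependent genes were lower, beside 9.4% of all genes, and 0 were higher, beside 13.1%. Centring on ribosomal protein genes moved all genes of this array up by 0.25 and put both medians above 0, at 0.10 and 0.25. The median of all genes was then 0.26.

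**Figure D1:**
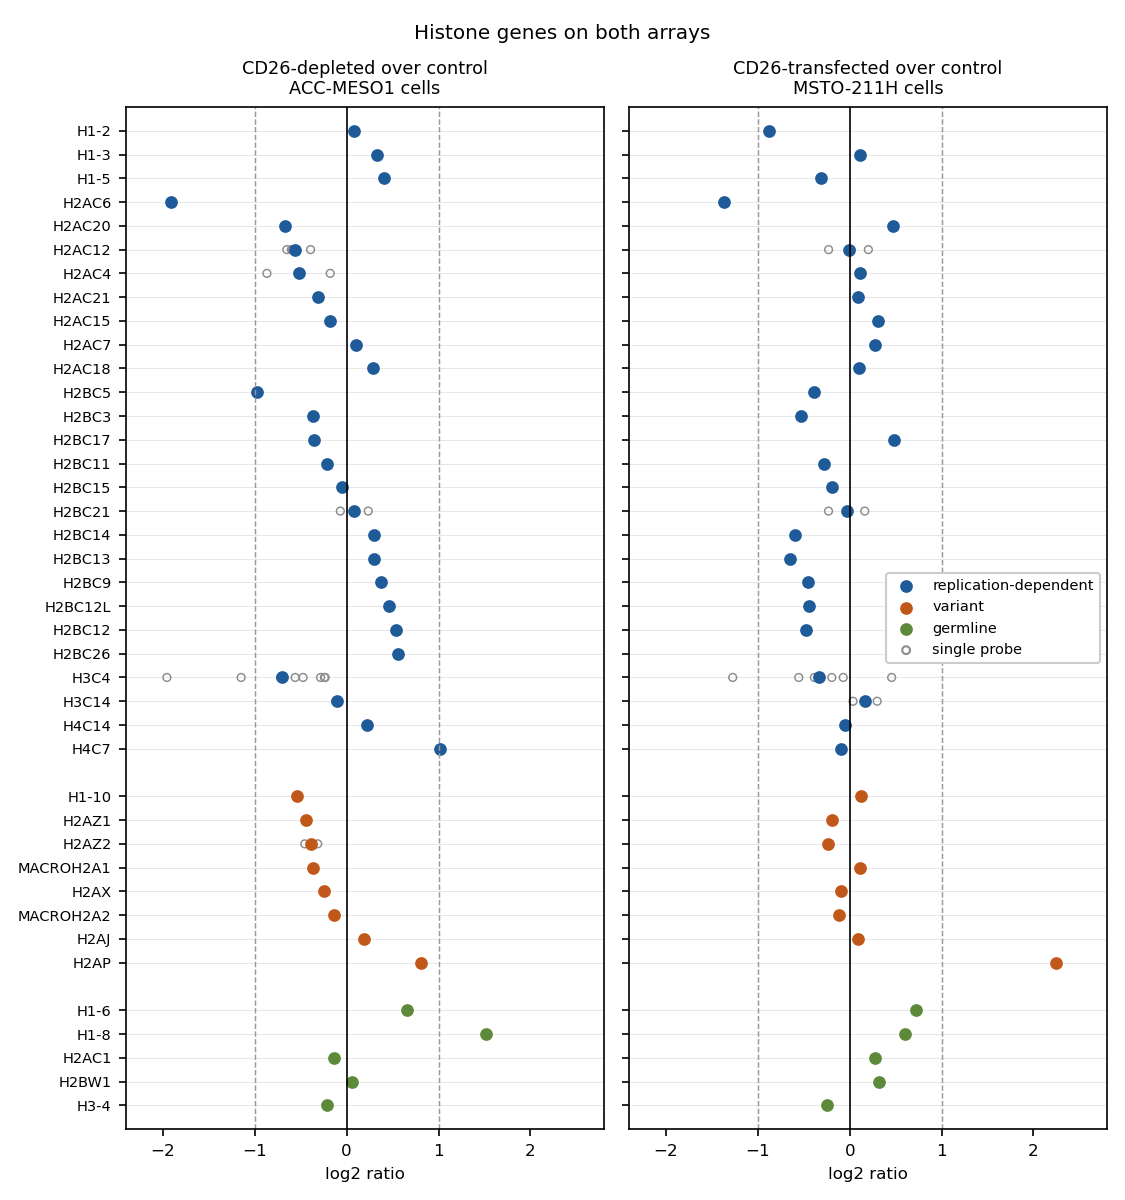
Log2 ratio of each histone gene (rows, grouped by class) in CD26-depleted over control ACC-MESO1 cells (left) and in CD26-transfected over control MSTO-211H cells (right). Filled points are genes, open points the probes of genes with several probes, and dashed lines mark 2-fold; H2AC6 lies beyond 2-fold lower in both panels, at -1.91 and -1.37.

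Within the replication-dependent class, the H2A and H2B medians lay further apart than the class median and the variant median did. H2A and H2B are only part of the families, and the contrast was not tested. H2A genes had a median log2 ratio of -0.42 after depletion, with 6 of 8 below 0, beside 48.7% of all genes. After transfection it was 0.11, with 6 of 8 above 0, beside 50.7%. H2B genes went the other way. Their median was 0.19 after depletion, with 7 of 12 above 0, near the 51.3% of all genes. After transfection it was -0.44, with 10 of 11 below 0, beside 49.3%. With centring on ribosomal protein genes these 4 medians were -0.06, 0.36, 0.54 and -0.19, so none changed sign. The medians of all genes were then 0.37 after depletion and 0.26 after transfection. The plot of families and classes shows most H2B points after transfection below those of H2A, with H2AC6 low among the H2A genes and H2BC17 above all of them. Probes of 1 family can bind transcripts of its near-identical copies, so its genes are not independent measurements, and the probe sequences were not used here.

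**Figure D2:**
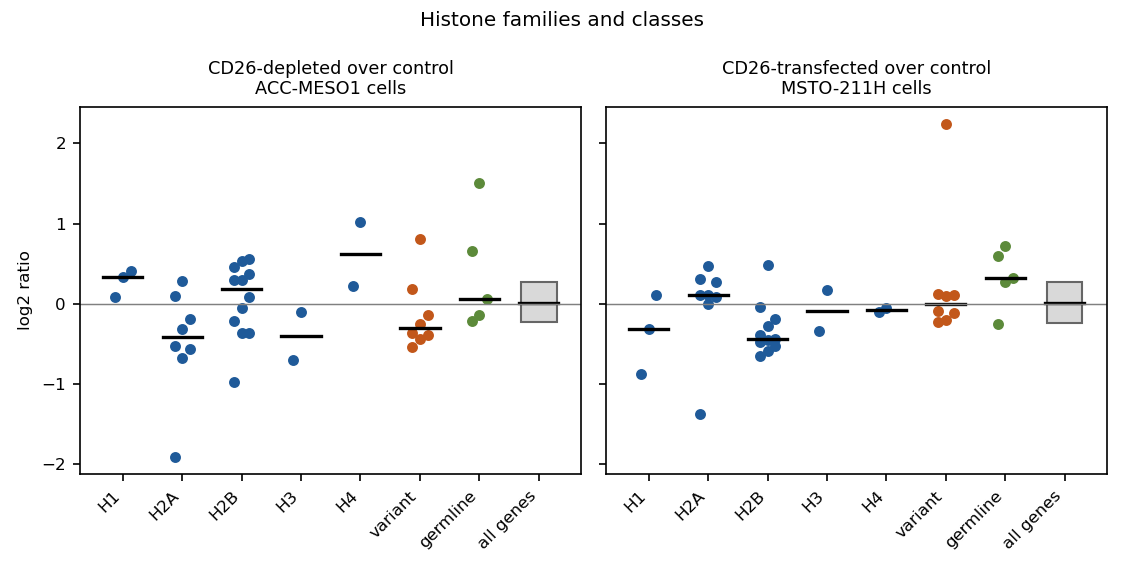
Log2 ratio of histone genes by family for the replication-dependent class (H1 to H4) and for variants and germline histones, in CD26-depleted over control ACC-MESO1 cells (left) and CD26-transfected over control MSTO-211H cells (right). Points are genes, black lines medians, and the grey box the quartiles of all genes (-0.23 to 0.27 on the left, -0.24 to 0.28 on the right).

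H2AC6, which encodes a replication-dependent H2A, was 3.76-fold lower in depleted cells (log2 ratio -1.91) and 2.59-fold lower in transfected cells (-1.37). It ranked 10th from the lowest of 10347 genes on the first array. Being at least 2-fold lower on both arrays was true of 5 of the 8956 genes measured on both, or 0.0558%. A single probe, the same on both arrays, gave these values.

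The other H2A genes had smaller ratios. H2AC20, of the second histone cluster, had log2 ratios of -0.67 after depletion and 0.47 after transfection, the widest gap between the arrays among the replication-dependent H2A genes. H2AC4 had -0.52 and 0.11, H2AC21 -0.31 and 0.08, and H2AC15 -0.19 and 0.30. All 4 were thus below 0 after depletion and above 0 after transfection, a pattern seen in 22.9% of the genes measured on both arrays. H2AC12 was at -0.56 after depletion, with its 4 probes between -0.65 and -0.39, and at -0.0037 after transfection. Whether these probes detect 1 gene or several near-identical H2A copies given the same symbol was not tested. H2AC18 (0.29 and 0.10) and H2AC7 (0.10 and 0.28) were above 0 on both arrays.

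Among H2B genes, 6 of the 11 with a value on both arrays were above 0 after depletion and below 0 after transfection, beside 24% of all such genes. They were H2BC12 (0.53 and -0.47), H2BC12L (0.46 and -0.44), H2BC9 (0.37 and -0.45), H2BC13 (0.30 and -0.65), H2BC14 (0.29 and -0.59) and H2BC21 (0.08 and -0.03). H2BC21, which carries probes listed under a pair of older names, had probes at 0.24 and -0.07 after depletion and at -0.23 and 0.16 after transfection. None of these 6 genes reached 2-fold on either array.

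A smaller set of H2B genes was below 0 on both arrays. H2BC5 was 1.97-fold lower in depleted cells (log2 ratio -0.98), just short of 2-fold, and had -0.38 in transfected cells. H2BC3 had -0.36 and -0.53, H2BC11 -0.21 and -0.28, and H2BC15 -0.06 and -0.19. H2BC17 stood alone with -0.36 after depletion and 0.49 after transfection. H2BC26 was at 0.56 after depletion and had no value after transfection.

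Outward-read neighbours measured together were few. H2BC21 and H2AC20 start 236 bases apart, and their log2 ratios were 0.08 and -0.67 after depletion and -0.03 and 0.47 after transfection. H2AC15 and H2BC15 start 194 bases apart, with -0.19 and -0.06 after depletion and 0.30 and -0.19 after transfection. In both pairs the H2A gene was above 0 and the H2B gene below 0 after transfection. The probes of H2BC21 had opposite signs there (-0.23 and 0.16), so its sign is not settled.

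Linker histone genes of the replication-dependent class were above 0 after depletion in 3 of 3 cases, beside 51.3% of all genes. H1-5 was at 0.41 after depletion and -0.31 after transfection, and H1-3 had 0.33 and 0.11. H1-2 was at 0.08 after depletion and 1.84-fold lower after transfection (-0.88), the second lowest histone gene there after H2AC6. The medians of the 3 genes were 0.33 and -0.31.

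Genes of H3 and H4 were few on the array. H3C4, which encodes H3.1, had 8 measured probes after depletion, from -1.96 to -0.23 with a mean of -0.70 and an SD of 0.59, and every one was below 0. Its 6 measured probes after transfection ran from -1.27 to 0.46 with a mean of -0.34. As the probe plot shows, its probes differed by more than those of the other histone genes with several probes, and the annotation gives the same symbol to all of them although many H3 genes encode the same protein. H3C14, which encodes H3.2, had -0.10 and 0.17, from 2 probes. H4C7, a divergent H4 gene, was 2.03-fold higher in depleted cells (1.02) and had -0.10 in transfected cells, and H4C14 had 0.22 and -0.06.

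**Figure D3:**
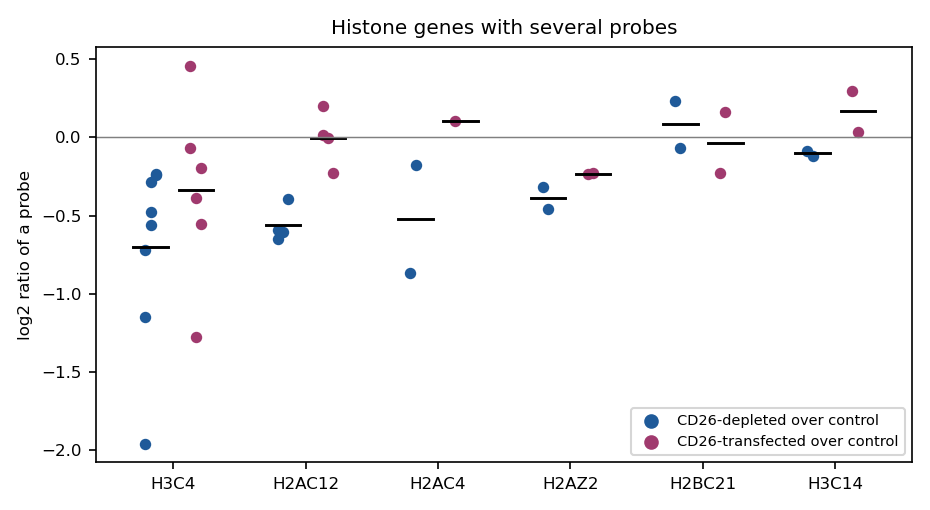
Log2 ratio of every probe of the 6 histone genes with several probes, in CD26-depleted over control cells (blue) and CD26-transfected over control cells (purple); black lines are means. The 8 blue points of H3C4 run from -1.96 to -0.23, while the 4 of H2AC12 run from -0.65 to -0.39.

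The variants other than H2AP ran from -0.54 to 0.19 after depletion. In depleted cells the linker variant H1-10 (-0.54), the H2A.Z genes H2AZ1 (-0.44) and H2AZ2 (-0.39), the macroH2A genes MACROH2A1 (-0.36) and MACROH2A2 (-0.13) and the DNA damage histone gene H2AX (-0.25) were below 0. The probes of H2AZ2 were at -0.31 and -0.46. H2AJ, a variant known to accumulate in senescent human fibroblasts, was at 0.19. Each of these 7 values but those of H1-10 and H2AZ1 lay closer to 0 than the probe SD of 0.42.

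In transfected cells the same 7 genes ran from -0.23 for H2AZ2 to 0.13 for H1-10. H2AZ1 was at -0.20, MACROH2A2 at -0.12, H2AX at -0.10, H2AJ at 0.09 and MACROH2A1 at 0.11. The genes encoding H2A.Z were thus below 0 on both arrays, as were 26.5% of all genes. With centring on ribosomal protein genes H2AZ1 (0.052) and H2AZ2 (0.017) were above 0 after transfection. So were 7107 of 9359 genes, whose median over all was then 0.26. The SD between genes was 0.82 over all 8 variants and 0.15 over the 7 without H2AP, which was set aside after its value was seen, against 0.43 over the 26 replication-dependent genes and 0.50 over all genes of the array. After depletion the same SD was 0.44 over 8 variants and 0.24 over 7, against 0.59 over 27 replication-dependent genes and 0.48 over all genes. The replication-dependent and all-gene sets kept their extreme genes, so only the SDs over all 8 variants can be set against theirs.

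H2AP, a short H2A-like gene known from testis and listed on the array under the older symbol CXorf27, was 4.75-fold higher in transfected cells (log2 ratio 2.25) and 1.75-fold higher in depleted cells (0.81). It ranked 16th from the highest of 9359 genes on the transfection array, and was the variant at least 2-fold higher there. Without H2AP the variant median was -0.36 after depletion and -0.10 after transfection.

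Germline histones were mostly above 0. The oocyte linker histone gene H1-8 was 2.85-fold higher in depleted cells (1.51) and at 0.60 in transfected cells, and the testis linker histone gene H1-6 was at 0.66 and 0.73. H2BW1, an H2B gene of the male germline, had 0.06 and 0.32, and the testis H2A gene H2AC1 had -0.13 and 0.27. The testis H3 gene H3-4 was below 0 on both arrays (-0.21 and -0.25). The medians of the 5 genes were 0.06 and 0.32. Genes of this kind are known mainly from germ cells, and since the values are ratios, whether they were above background on either array is unknown.

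**Figure D4:**
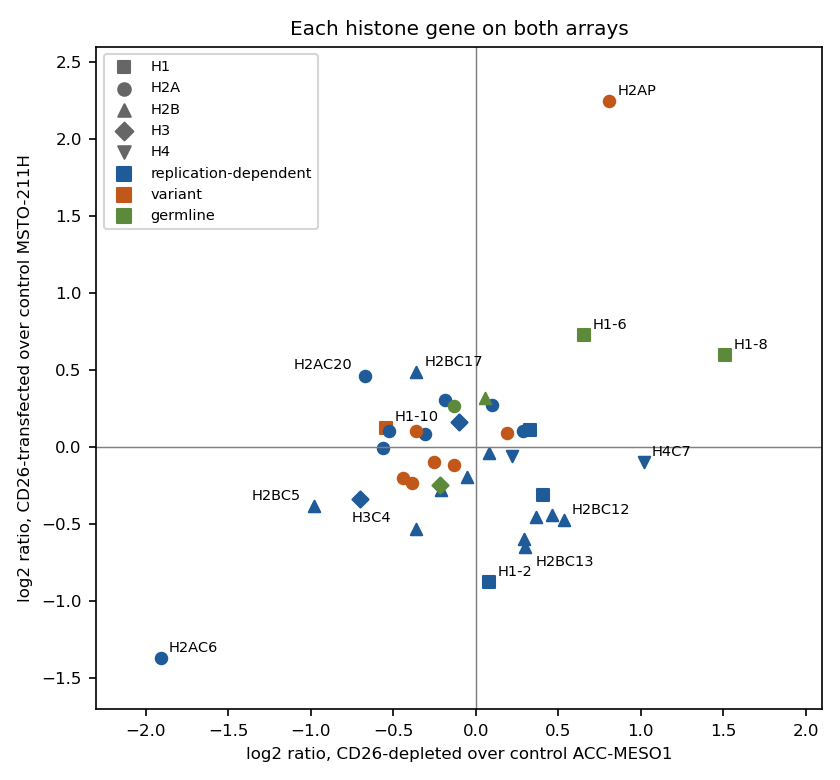
Log2 ratio of each of the 39 histone genes measured on both arrays, in CD26-depleted over control ACC-MESO1 cells (x axis) and CD26-transfected over control MSTO-211H cells (y axis), with shape for family and colour for class. H2AC6 lies at the lower left (-1.91 and -1.37) and H2AP at the upper right (0.81 and 2.25), while 6 H2B triangles lie to the right of 0 and below it.

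Across both arrays, opposite signs were seen in 19 of 39 histone genes, beside 46.9% of all genes, 10 of them above 0 after depletion and below 0 after transfection and 9 the other way. Among replication-dependent genes these opposite-sign numbers were 10 and 6 of 26, and among variants 0 and 2 of 8. A value above 0 on both arrays was seen in 8 histone genes, beside 26.6% of all genes, and a value below 0 on both in 12, beside 26.5%. Those below 0 on both included 7 of 26 replication-dependent genes and 4 of 8 variants. Over the 39 genes, which share the arrays and their dye orientation, Pearson's r between the arrays was 0.40 and Spearman's rho 0.09, against 0.06 and 0.08 over all 8956 genes.

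Genes that supply histones to chromatin lay close to the rest of the genes. The list was chosen for transcription, 3' end processing and chaperones of histones, and also held the centromeric H3 variant gene CENPA. With 31 measured members of 40, the list had median log2 ratios of -0.03 after depletion and 0.0035 after transfection. None of the members was past 2-fold on either array. SUPT16H, a subunit of the histone chaperone FACT, was the highest after depletion (0.75), and ASF1A, a chaperone of H3 and H4, the lowest (-0.73). After transfection the highest was ANP32E, a chaperone that removes H2A.Z (0.29), and the lowest NAP1L1, a chaperone of H2A and H2B (-0.47).

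S phase genes as a list had the same signs as the H2B, H1 and H4 medians, a match named after the values were seen. The H2A medians had the opposite signs (-0.42 and 0.11), and the H3 medians were below 0 on both arrays (-0.40 and -0.08). The S phase list had 24 measured members of 30. Their median log2 ratio was 0.13 after depletion, with 18 above 0, beside 51.3% of all genes. After transfection it was -0.21, with 16 below 0, beside 49.3% of all genes. With centring on ribosomal protein genes the S phase median after transfection was 0.04. The H2B, H1 and H4 medians were -0.19, -0.06 and 0.17. The median of all genes was then 0.26, so each of these lay below it. CCNE1, the G1/S cyclin, was the highest after depletion (0.74) and the lowest after transfection (-0.71), and CCNA2 was the lowest after depletion (-0.31) and POLA2 the highest after transfection (0.28). In 13 of the 24 the sign was above 0 after depletion and below 0 after transfection, beside 24% of all genes measured on both arrays. The part of S phase genes in the histone values was not tested.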

How the data were processed

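The arrays had 2 colours, with control cells in Cy5 and manipulated cells in Cy3, and there was no dye swap. Per the labels, the deposited unit is a log2 ratio, manipulated over control cells, that the authors had normalized; each column had a median of 0, so the authors' values were already centred. Background correction, normalization and the rule for missing values are not given in the sources at hand, and no intensities were used. Of the probes, 13395 had a single gene symbol in the platform annotation. Any probe listed with several symbols counted as unnamed and could not be a member. Symbols were updated through RefSeq (GRCh38.p14) and probes of a gene were averaged. Calls required a size of 1 or more on the log2 scale. Ribosomal protein genes served only for the other centring. Of 32, 28 were below 0 after depletion and 26 after transfection, so that centring put most genes above 0. Members, classes and lists of markers, histone supply and S phase genes were chosen with earlier results of these data known. Every histone member could be named, and DPP4. Of the supply and S phase genes, the highest, the lowest and those past 2-fold were named. All markers past 2-fold were named, with some of the others. The closing section names further supply genes chosen after their values were seen. Medians and counts are descriptions, with no test. Scripts were tested on simulated data and used Python 3.11.15, numpy 2.4.6 and pandas 2.3.3. Precision is limited by the number of arrays.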

Additional observations from a re-analysis of the deposited data

How the results depend on the processing

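No paired analysis was possible because each comparison had 1 array. There were 6 alternatives for each median and 8 for each count, leaving out H2AP among them. Of 100 values, 76 kept their sign and stayed within 0.1 of a median or within 1.5 times a count. Some alternatives could not move some values, such as leaving out H2AP for a replication-dependent value or the centring for a difference of medians. Some counts also stayed at 0, so the 76 does not measure robustness. After depletion, centring on ribosomal protein genes gave medians of 0.43 (replication-dependent) and 0.045 (variant), reversing the second, and 1 variant at least 2-fold higher. After transfection it gave 0.10 and 0.25, reversing both. The medians of all genes were then 0.37 after depletion and 0.26 after transfection. Each probe on its own gave, after depletion, a replication-dependent median of -0.20 (reversed), a difference of 0.12 and 3 probes at least 2-fold lower (1 of H2AC6 and 2 of H3C4), and after transfection 2 probes lower. The probe of largest size gave 2 genes lower on each array. Counting germline histones as variants gave variant medians of -0.13 and 0.11 (the second reversed), differences of 0.22 and -0.25, and 1 variant higher after depletion. At a log2 threshold of 0.5, depletion had 3 replication-dependent genes higher and 6 lower, beside 12.8% and 9.8% of all genes, and 1 variant each way; transfection had 5 replication-dependent genes lower, beside 9.4%. At 1.5, the depletion array had 0 replication-dependent genes higher and the transfection array 0 lower. Leaving out H2AP, a choice made after its value was seen, gave 0 variants higher after transfection. The share over all genes or probes past the threshold was not computed for the centring, single-probe, largest-probe and 1.5 settings. Their counts therefore stand without a share to compare with. Signal over background is unknown, so dim probes could not be set aside.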

Other observations

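The replication-dependent genes of the largest cluster, listed with names starting HIST1, had median log2 ratios of -0.06 after depletion (10 of 19 below 0) and -0.31 after transfection (14 of 19 below 0). Those listed with names starting HIST2 had -0.10 after depletion (3 of 5 below 0) and 0.10 after transfection (4 of 5 above 0). Of all genes, 48.7% were below 0 after depletion and 49.3% after transfection. With centring on ribosomal protein genes the cluster medians after depletion were above 0, at 0.30 for HIST1 and 0.25 for HIST2. After transfection they were -0.06 for HIST1 and 0.35 for HIST2. The medians of all genes were then 0.37 after depletion and 0.26 after transfection. The HIST2 genes include 3 H2A genes and 1 H2B gene, so cluster and family overlap.

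SLBP, which binds the stem-loop of replication-dependent histone mRNAs, had log2 ratios of 0.64 after depletion and 0.08 after transfection, and NPAT, a coactivator at the histone clusters, had -0.28 and 0.04. POU2F1, which binds the octamer, had -0.06 and -0.42. The H2A.Z chaperone genes ANP32E and VPS72 had -0.69 and -0.39 after depletion, beside -0.44 for H2AZ1 and -0.39 for H2AZ2, and 0.29 and -0.23 after transfection. ZNHIT1, a further gene of H2A.Z exchange, had 0.23 after depletion and -0.32 after transfection. CENPA, the centromeric H3 variant, which the membership rule leaves out, had -0.25 and 0.25. These genes were named after their values were seen.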
